A study of Homo sapiens with 4 samples.

Results

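Transcripts of 10 oxygen-dependent hydroxylases and demethylases were examined in MDA-MB-361 cells, a HER2-amplified luminal breast cancer line, expressing shRNA against dermcidin (DCD), a gene that encodes a secreted peptide. The genes were P4HA1, P4HA2, PLOD1, PLOD2, PLOD3, ASPH, EGLN1, EGLN3, KDM3A and KDM4B, chosen by name out of 19775 genes that the platform annotation gives as the only gene of a probe set. They are read by 34 probe sets, of which 28 passed a filter on low values (a mean normalized log2 intensity that reached the median probe set), with at least 1 for each gene. Affymetrix U133 Plus 2.0 arrays were hybridized with total RNA from 4 cell derivatives of this line. Of these, 3 expressed DCD shRNA from the lentiviral pLKO vector and are labelled clones 1, 2 and 3, each with a hairpin against another region of the transcript, and 1 carried the pLKO control vector. The study calls its derivatives both cell pools and clones. Each derivative gave 1 array, so no value of a single array has an error, and all 3 comparisons share the one pLKO array. In such bulk RNA, fewer expressing cells and less RNA per cell cannot be told apart.

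These enzymes use molecular oxygen, 2-oxoglutarate and iron to hydroxylate proteins. P4HA1 and P4HA2 are the alternative catalytic subunits of collagen prolyl 4-hydroxylase, and PLOD1, PLOD2 and PLOD3 hydroxylate lysines of procollagen in the endoplasmic reticulum. ASPH hydroxylates aspartate and asparagine in EGF-like domains. EGLN1 (PHD2) and EGLN3 (PHD3) hydroxylate the alpha subunits of the hypoxia-inducible factors (HIF) and so mark them for degradation by the VHL ubiquitin ligase, while KDM3A and KDM4B remove methyl groups from histone H3 lysines. As a background fact, HIF itself induces many of them under low oxygen, among them P4HA1, P4HA2, PLOD1, PLOD2, EGLN1, EGLN3, KDM3A and KDM4B.

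Array quality differed. The 3' to 5' ratio of the ACTB control probe sets, which is high in degraded or incompletely labelled RNA, was 9.67 in shDCD clone 1, 2.58 in clone 2 and 42.6 in clone 3, against 5.29 in pLKO, and the GAPDH ratio 2.18, 1.02 and 13.1 in clones 1, 2 and 3, against 1.09 in pLKO. The median intensity was 20, 24.7 and 13.4 in the clones and 20.6 in pLKO, while the mean of 16 spiked control probe sets lay between 3784 and 4339. DCD had intensities of 7, 6 and 2.7 in clones 1, 2 and 3 and 2 in pLKO, all under 16, the floor to which lower intensities were raised, so these arrays do not check the knockdown. All 8 luminal markers, such as KRT8, KRT18, EPCAM and ERBB2, were above that floor on the 4 arrays. Of 5 basal or mesenchymal markers, KRT5 and KRT14 were under it on each array, VIM was above it on 3 and CDH2 on all 4, with CDH2 at 88, 93.3 and 166.3 in clones 1, 2 and 3 and 46.1 in pLKO. The summed intensity of that list was 138, 133 and 193 in the clones and 84 in pLKO. Of 6 fibroblast markers, 2 (COL1A1 and COL1A2) were above it on every array, and the summed intensity of the list was 352, 389 and 287 in clones 1, 2 and 3 and 295 in pLKO. Of 5 leukocyte and endothelial markers PECAM1 was above it on every array, and their sum was 91, 136 and 64 in the clones and 108 in pLKO. The part of these markers in the results was not tested.

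After quantile normalization, 6 of the 10 genes were lower than pLKO in all 3 comparisons by their brightest probe set, beside 21.3% of the 12728 genes tested. These were P4HA1, P4HA2, PLOD3, ASPH, EGLN1 and KDM3A. No member was higher in each of them, beside 18.8% of all genes, and PLOD1, PLOD2, EGLN3 and KDM4B went both ways. The median log2 difference of the 10 genes was -0.37 in clone 1, -0.58 in clone 2 and -0.81 in clone 3, and that of all genes tested was 0.01, 0 and -0.11 in the same order. By array, 7 of the 10 genes were lower in clone 1, 9 in clone 2 and 9 in clone 3, beside 48.5%, 49.2% and 53.8% of all genes. At least 2-fold lower were 2 members in clone 1, 2 in clone 2 and 4 in clone 3, beside 9.09%, 4.34% and 22.4% of genes, and 0 members were at least 2-fold higher in any clone, beside 7.2%, 3.33% and 14.9% of genes. P4HA1 and ASPH were at least 2-fold lower in each comparison, beside 0.817% of all genes, and 0 members were at least 3-fold lower in each by their brightest probe set, beside 0.181%. Without clone 3, whose 3' to 5' ratios were the highest of the 4 arrays, 7 of the 10 genes were lower in both remaining comparisons, beside 30.8% of genes. Clone 2, whose ratios were under those of pLKO, had as many members lower than pLKO as clone 3 after this normalization. In the values as deposited it did not. There P4HA2, PLOD1 and EGLN1 were above pLKO in clone 2 (log2 differences of 0.33, 0.60 and 0.27), and every member was below it in clone 3. The part of RNA quality in these differences was not tested.

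**Figure D1:**
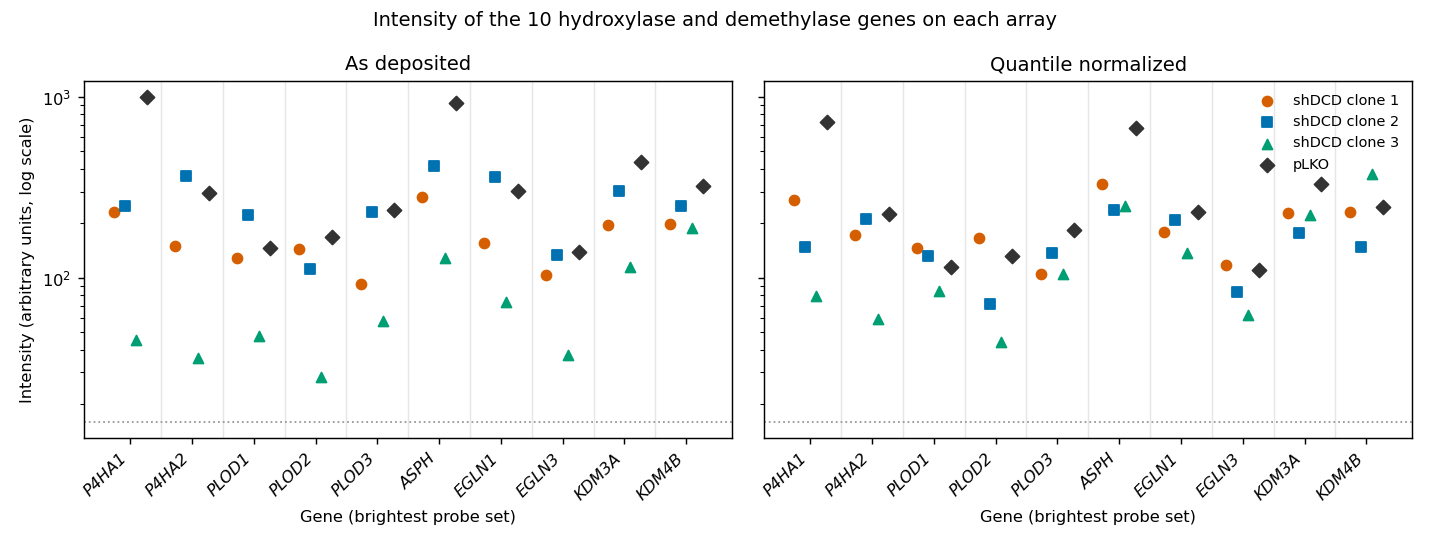
Intensity (arbitrary units, log axis) of the brightest probe set of each gene on each array, as deposited on the left and after quantile normalization on the right, with the dotted line at the floor of 16. Each point is 1 array. The pLKO diamond is the highest point of P4HA1 and ASPH by a wide margin in both panels, at 727 against 79.2 to 270 (the clones) for P4HA1 after normalization, while the points of PLOD1, EGLN3 and KDM4B surround it there.

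The 250 bases upstream of the transcription start of 6 genes are shown because HIF acts through a short core motif, ACGTG or GCGTG, near the genes it induces. The first 4 genes shown were lower in all 3 comparisons, and PLOD2 and KDM4B went both ways but hold the most matches. The sequences are those of RefSeq on GRCh38.p14, at chr10:73096867-73097116 on the minus strand for P4HA1, chr7:101217582-101217831 on the minus strand for PLOD3, chr1:231422288-231422537 on the minus strand for EGLN1, chr2:86441121-86441370 on the plus strand for KDM3A, chr3:146161185-146161434 on the minus strand for PLOD2 and chr19:4968863-4969112 on the plus strand for KDM4B. Capitals mark the core motif on either strand, so that CACGT and CACGC stand for the reverse complement.
P4HA1: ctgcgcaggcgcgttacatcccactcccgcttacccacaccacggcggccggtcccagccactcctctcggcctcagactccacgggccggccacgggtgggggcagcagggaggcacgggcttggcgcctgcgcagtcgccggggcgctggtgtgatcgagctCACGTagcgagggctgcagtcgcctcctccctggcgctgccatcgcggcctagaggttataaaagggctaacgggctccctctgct
PLOD3: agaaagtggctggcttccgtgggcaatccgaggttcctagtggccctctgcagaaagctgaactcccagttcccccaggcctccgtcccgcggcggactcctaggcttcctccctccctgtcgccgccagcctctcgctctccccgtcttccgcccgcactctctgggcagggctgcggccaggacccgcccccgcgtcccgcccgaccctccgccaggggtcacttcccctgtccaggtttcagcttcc
EGLN1: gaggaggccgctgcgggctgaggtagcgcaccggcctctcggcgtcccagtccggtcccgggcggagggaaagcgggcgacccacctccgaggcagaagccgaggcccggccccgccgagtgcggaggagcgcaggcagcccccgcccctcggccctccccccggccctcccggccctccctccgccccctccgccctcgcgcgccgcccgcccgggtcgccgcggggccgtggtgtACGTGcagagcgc
KDM3A: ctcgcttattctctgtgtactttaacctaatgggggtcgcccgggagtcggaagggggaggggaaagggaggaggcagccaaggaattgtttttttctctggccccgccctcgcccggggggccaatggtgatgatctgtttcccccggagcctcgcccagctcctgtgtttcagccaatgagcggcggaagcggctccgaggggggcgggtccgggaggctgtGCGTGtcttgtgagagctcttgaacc
PLOD2: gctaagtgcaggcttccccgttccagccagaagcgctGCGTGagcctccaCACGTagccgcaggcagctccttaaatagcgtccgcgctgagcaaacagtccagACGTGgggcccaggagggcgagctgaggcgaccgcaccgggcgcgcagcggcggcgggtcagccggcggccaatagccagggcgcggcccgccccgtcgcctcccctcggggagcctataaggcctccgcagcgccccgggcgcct
KDM4B: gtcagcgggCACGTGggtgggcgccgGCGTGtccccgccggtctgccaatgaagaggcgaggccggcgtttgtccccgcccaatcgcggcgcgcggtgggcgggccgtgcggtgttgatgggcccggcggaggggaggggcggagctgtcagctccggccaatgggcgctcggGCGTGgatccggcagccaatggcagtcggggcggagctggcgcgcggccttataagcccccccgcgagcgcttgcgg
P4HA1 holds 1 match, 86 bases before its start, EGLN1 holds 1 at 13 bases and KDM3A 1 at 26 bases, while PLOD3 has none in this window. PLOD2 holds 3 and KDM4B 4, of which a pair overlaps in the E-box CACGTG, a palindrome that also binds other factors. ASPH was left out of the search. Of the 9 members searched, 6 hold a match, PLOD1 among them, and P4HA2, PLOD3 and EGLN3 hold none. Of all 35116 windows of this length, 43.2% hold a match, which is a share of windows and not of genes. A match is only a run of letters, and these arrays measure no binding.

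P4HA1 had the largest difference of the 10 genes. Its brightest probe set, 207543_s_at, had a deposited intensity of 231.3 in clone 1, 250 in clone 2 and 45.4 in clone 3, against 994.9 in pLKO. All 3 clones were thus far under the control, and after normalization P4HA1 was 2.69-fold, 4.92-fold and 9.18-fold lower than pLKO in clones 1, 2 and 3. The mean log2 difference was -2.31 ± 0.89 (SD over the 3 clones), which ranks 19 from the lowest of 12728 genes. In the values as deposited it was 4.30-fold, 3.98-fold and 21.9-fold lower. The range between the clones, 1.77 on the log2 scale, was larger than the smallest gap between a clone and pLKO, 1.43. Its other probe set was under the floor on all 4 arrays.

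P4HA2, the alternative catalytic subunit, had deposited intensities of 150.4, 367 and 35.9 in clones 1, 2 and 3, against 292.8 in pLKO, so that clone 2 lay above the control and the other clones below it. After normalization it was 1.30-fold, 1.07-fold and 3.78-fold lower. Its mean log2 difference of -0.80 ± 0.98 (SD, n = 3) became -0.24 without clone 3. Its second tested probe set had log2 differences of 0.14, -0.09 and -1.41. P4HB, the protein disulfide isomerase that serves as the beta subunit of the enzyme, was 1.37-fold, 1.37-fold and 3.86-fold lower. P4HA1 was thus lower by more than the other 2 genes of this enzyme on every array, although a test of that difference was not made.

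Among the lysyl hydroxylases, PLOD3 was lower in all 3 comparisons. Its deposited intensity was 92.1 in clone 1, 232.1 in clone 2 and 58 in clone 3, against 235.8 in pLKO, so that clone 2 and pLKO were nearly equal before normalization. After it, PLOD3 was 1.75-fold, 1.34-fold and 1.74-fold lower, with a mean log2 difference of -0.68 ± 0.22 (SD, n = 3). PLOD2, which hydroxylates the telopeptide lysines of collagen, had deposited intensities of 144.9, 111.5 and 28.3 in clones 1, 2 and 3, against 167.8 in pLKO. It was lower in every clone as deposited, but after normalization its log2 difference was 0.34 in clone 1, -0.87 in clone 2 and -1.57 in clone 3. The other probe set of PLOD2 gave 0.06, -0.12 and -2.04, so that only clone 3 was clearly lower by both. PLOD1 had deposited intensities of 128.4, 221.1 and 47.6 in the clones, against 145.6 in pLKO. The control lay between the clones, and the normalized log2 differences of PLOD1 were 0.35, 0.19 and -0.45.

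ASPH is read by 9 probe sets, all of which were tested, and the gene also encodes junctin and junctate, isoforms without the catalytic domain. The brightest, 209135_at, had a deposited intensity of 280.5 in clone 1, 415.4 in clone 2 and 128 in clone 3, against 926.8 in pLKO. After normalization it was 2.04-fold, 2.84-fold and 2.68-fold lower, with a mean log2 difference of -1.32 ± 0.25 (SD, n = 3). The clones lay within 0.47 of each other on the log2 scale and at least 1.03 under pLKO. Together with PLOD3 and KDM3A it was 1 of 3 members whose gap to the control exceeded the range between the clones, beside 3.44% of all genes. That held after quantile normalization. With median centring ASPH and KDM3A met it and PLOD3 did not, and in the values as deposited none of them did. The deposited log2 differences in clones 1, 2 and 3 were -1.72, -1.16 and -2.86 for ASPH. For KDM3A they were -1.16, -0.52 and -1.92, and for PLOD3 -1.36, -0.02 and -2.02.

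The probe sets of ASPH did not all differ the same way. In all 3 comparisons 5 of the 9 were lower, beside 20% of all probe sets tested, and 1 was higher, beside 19.4%. The other 3 had clones on both sides of pLKO. The probe set 210896_s_at had deposited intensities of 98.5, 386 and 22.6 in clones 1, 2 and 3, against 1014.6 in pLKO. At 6.64-fold, 3.37-fold and 22.0-fold lower it was the only probe set of the 10 genes that was 3-fold lower or more in every comparison, which was the study's criterion, beside 0.179% of all 27307 probe sets tested, and none passed it in the other direction, beside 0.0366%. In the values as deposited 210896_s_at was 10.3-fold, 2.63-fold and 44.9-fold lower and missed that criterion, which the P4HA1 probe set then met. For 224996_at the clones were 2.38-fold, 2.52-fold and 12.0-fold under pLKO, and for 225008_at 1.99-fold, 2.67-fold and 3.08-fold. For 242037_at, clones 2 and 3 were at the floor, and it was 2.07-fold lower in clone 1 and at least 4.22-fold lower in clones 2 and 3. In the other direction, 229879_at had deposited intensities of 63.2 in clone 1, 68.4 in clone 2 and 266.8 in clone 3, against 142.5 in pLKO, and 207284_s_at had 14.5, 5.4 and 77.2, against 19.4 in pLKO. Both were higher than pLKO in clone 3 alone, at 4.78-fold and 7.97-fold after normalization. The one that was higher in all 3 comparisons, 230429_at, had log2 differences of 0.01, 0.03 and 0.63. Which isoform each probe set reads was not resolved here.

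**Figure D2:**
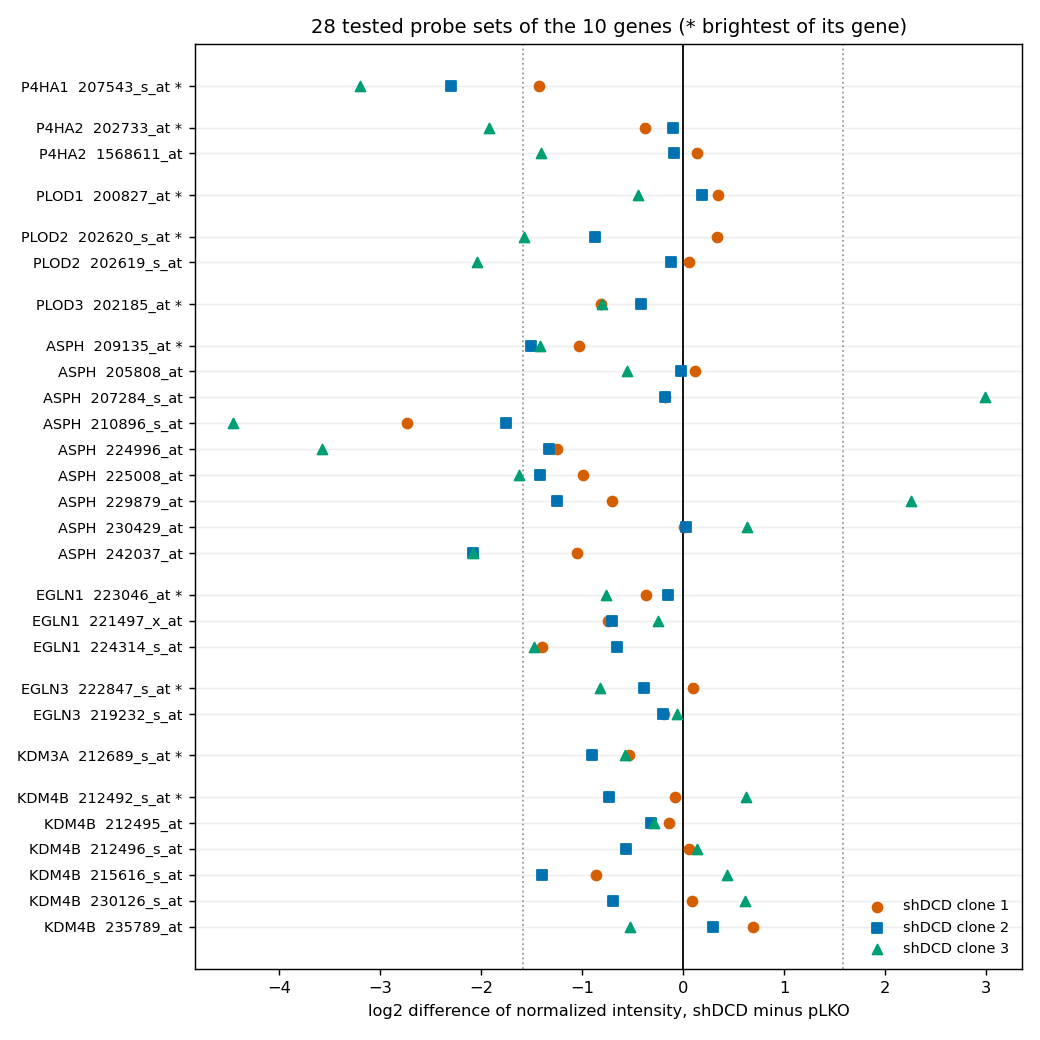
log2 difference of normalized intensity, shDCD minus pLKO, for the 28 tested probe sets, grouped by gene, with an asterisk at the brightest. Each symbol is 1 clone, the solid line is no difference and the dotted lines are 3-fold. Only 210896_s_at of ASPH has all 3 symbols left of the lower dotted line, and the triangles of clone 3 lie farthest out on both sides.

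Of the HIF hydroxylases, EGLN1 was lower in all 3 comparisons by each of its 3 tested probe sets, beside 20% of all probe sets tested. By the brightest, 223046_at, its deposited intensity was 155.4 in clone 1, 361 in clone 2 and 73.3 in clone 3, against 300.1 in pLKO, so that clone 2 was above the control before normalization and 1.11-fold lower after it. Clones 1 and 3 were 1.29-fold and 1.69-fold lower. The probe set 224314_s_at was 2.64-fold lower in clone 1, 1.57-fold lower in clone 2 and at least 2.79-fold lower in clone 3, where it was at the floor. EGLN3 had deposited intensities of 103.2, 133 and 37.3 in clones 1, 2 and 3, against 138.8 in pLKO. Its normalized log2 differences were 0.10, -0.39 and -0.82, and its other probe set gave -0.19, -0.20 and -0.06, with all clones close to the control. The mean log2 difference of EGLN3 was -0.37 ± 0.46 (SD, n = 3), against -0.15 without clone 3 and -0.13 without clone 1, where the other probe set was the brightest.

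KDM3A, which demethylates lysine 9 of histone H3, had a deposited intensity of 195.5 in clone 1, 303.8 in clone 2 and 115.2 in clone 3, against 435.8 in pLKO. The control was above every clone, and after normalization KDM3A was 1.44-fold, 1.86-fold and 1.48-fold lower, with a mean log2 difference of -0.66 ± 0.20 (SD, n = 3). KDM4B had deposited intensities of 197.2, 249.7 and 187.7 in the clones, against 321.5 in pLKO, and was lower in every clone in this form. Its normalized log2 differences were -0.08, -0.73 and 0.62, so that clone 3 was on the other side of the control. Of the 6 tested probe sets of KDM4B, 1 was lower in all 3 comparisons, beside 20% of all probe sets tested. The other 5 went both ways, and all but 235789_at were lower in clone 2. For paralogs, named for their kinship and outside the rule for naming genes, the normalized log2 differences in clones 1, 2 and 3 were 0.15, 0.36 and -0.64 for KDM3B, -0.20, -0.30 and 0.23 for KDM4A and -0.30, 0.17 and -0.63 for KDM4C. None of the 3 was lower in every comparison.

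After quantile normalization the clones differed in the order of the members. For 6 of the 10 genes (P4HA1, P4HA2, PLOD1, PLOD2, EGLN1 and EGLN3) the lowest of the 3 log2 differences was in clone 3, beside 44% of all genes, for ASPH, KDM3A and KDM4B it was in clone 2, and for PLOD3 in clone 1. In the values as deposited, clone 3 had the lowest log2 difference for every member. There PLOD3 had -1.36, -0.02 and -2.02 and ASPH -1.72, -1.16 and -2.86 in clones 1, 2 and 3. The share of all genes was not counted in that form. With 1 array each, whether neighbouring clones in these orders differ cannot be tested.

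**Figure D3:**
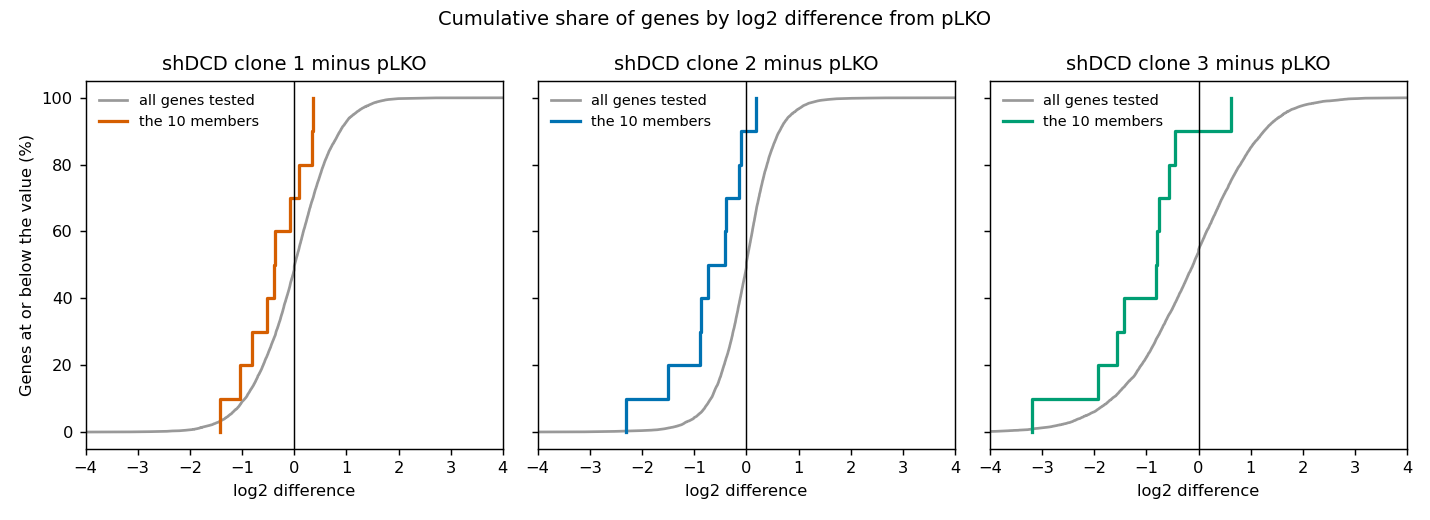
Cumulative share of genes (%) by log2 difference from pLKO in each clone, for the 10 genes (coloured steps) and for all 12728 genes tested (grey). The coloured steps lie left of the grey line over most of the range, with medians of -0.37, -0.58 and -0.81 in clones 1, 2 and 3.

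No single probe set passed a test across the arrays. limma, fitted to the 3 shDCD arrays and the lone pLKO array, gave an adjusted p of 0.9998 for each of the 28 member probe sets, and called 0 of the 27307 probe sets at an adjusted p under 0.05. Its unadjusted p was 0.0218 for P4HA1, 0.0789 for the brightest probe set of ASPH, 0.0180 for 210896_s_at and 0.0431 for 242037_at. At an unadjusted p under 0.05 limma gave 3 of the 28 member probe sets as lower, beside 0.458% of all probe sets, and 0 as higher, beside 0.297%. The paired test that the study's methods name, run on the 3 differences from the one pLKO array, gave 8 of 28 as lower at an unadjusted p under 0.05, beside 3.94%, and 0 after Benjamini-Hochberg adjustment over all probe sets. The study names this paired test for its results in general and does not say which test its arrays had. With 4 arrays, the smallest p of an exact permutation test is 0.25.

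Other genes around these enzymes were taken from 6 lists. Of 6 tested collagen-modifying enzymes outside the 10, P4HB and P3H4 were lower in all 3 comparisons and CRTAP, a partner of prolyl 3-hydroxylase, was higher, and the collagen chaperone SERPINH1 had log2 differences of -0.92, 0.10 and -3.63. Of 7 tested collagen chains, the substrates of P4HA and PLOD enzymes, 0 were lower and COL1A2 and COL6A1 were higher, with COL6A1 at 2.24-fold, 1.58-fold and 1.90-fold. Neither was higher in all 3 clones in the values as deposited. COL18A1 was lower in all 3 with median centring and as deposited, and COL5A2 as deposited. Beside the counts of both lists, 21.3% of all genes were lower in all 3 comparisons and 18.8% higher. CRTAP was higher in all 3 only after quantile normalization. Most collagen chains of the list, 12 of 19, were too dim to test or not named.

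Of 13 tested HIF pathway factors, 3 were lower (SIAH1, SIAH2 and CITED2) and 4 were higher (HIF1AN, HIF3A, VHL and CREBBP), where 21.3% of all genes were lower in all 3 comparisons and 18.8% higher, shares that also stand beside the counts of the lists that follow. HIF1AN, the asparaginyl hydroxylase of HIF, had deposited intensities of 131.7, 214.4 and 84 in clones 1, 2 and 3, against 101.9 in pLKO, with clone 3 under the control, and was 1.84-fold, 1.56-fold and 1.92-fold higher after normalization. CITED2, a HIF target that competes with HIF for its coactivators, was 3.34-fold, 1.52-fold and 4.01-fold lower. HIF1A, the oxygen-regulated subunit, had log2 differences of 0.14, -0.21 and 1.42. Of 22 other JmjC demethylases and hydroxylases, 2 were lower (HR and KDM7A) and 7 were higher, with TYW5, a tRNA hydroxylase, 3.00-fold, 2.04-fold and 3.07-fold higher and KDM8 1.42-fold, 1.48-fold and 2.24-fold higher. Of 18 TET, ALKBH and further oxygenases, 3 were lower (ALKBH4, FTO and OGFOD2) and 4 were higher (TET3, ALKBH6, OGFOD3 and ASPHD2). The median log2 difference was 0.23 for the HIF factors, 0.22 for the JmjC genes and -0.08 for the TET and ALKBH list, beside -0.06 for all genes and -0.67 for the 10 members. The signs of the medians of HIF factors and JmjC genes depended on the scaling, at -0.07 with median centring and -0.20 as deposited for the HIF factors and -0.08 and -0.22 for the JmjC genes, where the medians of all genes were -0.31 and -0.42. As deposited 0 of the HIF factors, 4 JmjC genes and 2 of the TET and ALKBH list were higher in all 3 comparisons, beside 6.78% of all genes. CITED2, KDM7A, OGFOD2, TYW5, KDM8, KDM5A, ALKBH6 and ASPHD2 kept their direction under all 3 scalings, though pLKO was at the floor for ASPHD2.

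Of 18 tested hypoxia-induced genes of other function, 13 were lower in all 3 comparisons and INSIG2 and LOXL2 were higher, with a median log2 difference of -0.97. The same 13 were lower in all 3 comparisons with median centring and as deposited, while INSIG2 lost its place with both and LOXL2 as deposited. PDK1, the kinase that shuts pyruvate off from the citrate cycle, had deposited intensities of 80.6, 58.6 and 18 in the clones and 313.3 in pLKO, and its folds of 2.64, 5.76 and 9.12 lower lay close to those of P4HA1. PFKFB3, which makes an activator of phosphofructokinase, was lower by 3.61-fold, 2.64-fold and 2.62-fold. NDRG1, a stress-induced growth suppressor, the only gene of these lists at least 3-fold lower in each comparison, was 5.63-fold, 4.76-fold and 14.8-fold lower. limma called 0 genes of the 6 lists at an adjusted p under 0.05.

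**Figure D4:**
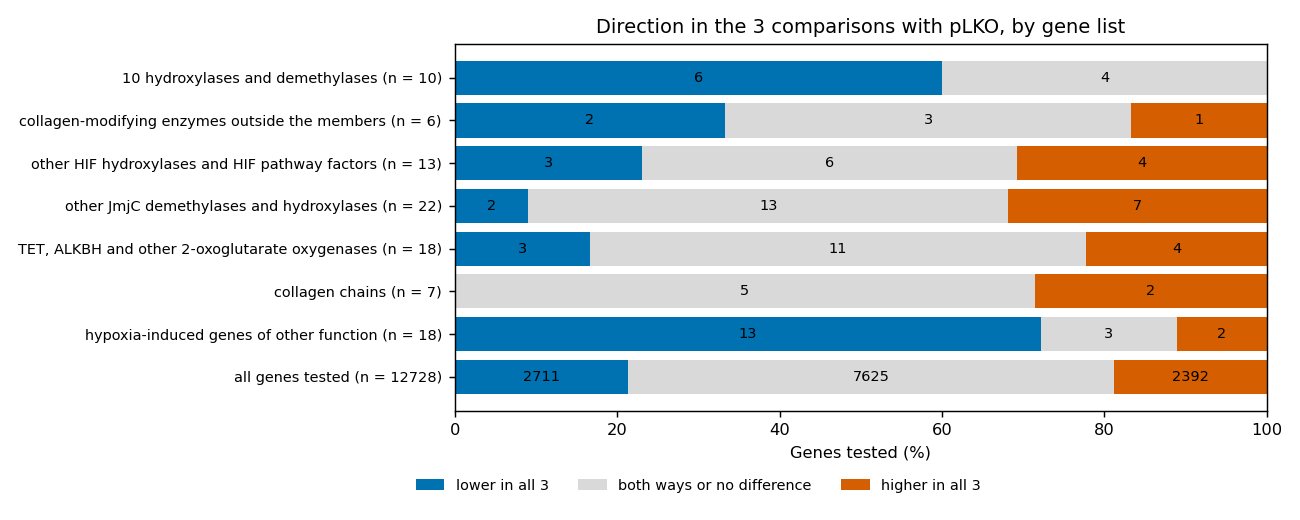
Share of the tested genes (%) that were lower in all 3 comparisons, went both ways or showed no difference, or were higher in all 3, for the 10 genes, the 6 further lists and all genes, with gene counts in the bars. The 10 genes (6 lower, 0 higher) and the hypoxia-induced genes (13 lower, 2 higher) have the longest lower segments, against 2711 of 12728 for all genes.

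The scaling of the arrays moved several members. Under all 11 ways of processing tried, P4HA1, PLOD3, ASPH and KDM3A were lower than pLKO in every comparison. Most of these could not change that. For these genes the other floors and filters gave the same differences, and leaving out a clone reused them. Averaging probe sets could change the direction only for ASPH, as PLOD3 has 1 probe set and the second ones of P4HA1 and KDM3A were at the floor throughout. Median centring and the deposited values were thus the main other check. By quantile normalization, median centring and the deposited values alike, 12.3% of genes were lower in all 3. P4HA2 and EGLN1 had clone 2 at or above pLKO with median centring (log2 differences of 0.06 and 0.00) and in the deposited values (0.33 and 0.27). PLOD2, EGLN3 and KDM4B, which went both ways after quantile normalization, were lower in all 3 comparisons under these other scalings, which also lowered the median of all genes. Without clone 3 the mean log2 difference was -0.27 for PLOD2 and -0.26 for EGLN1, against -0.70 and -0.42 with it.

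**Figure D5:**
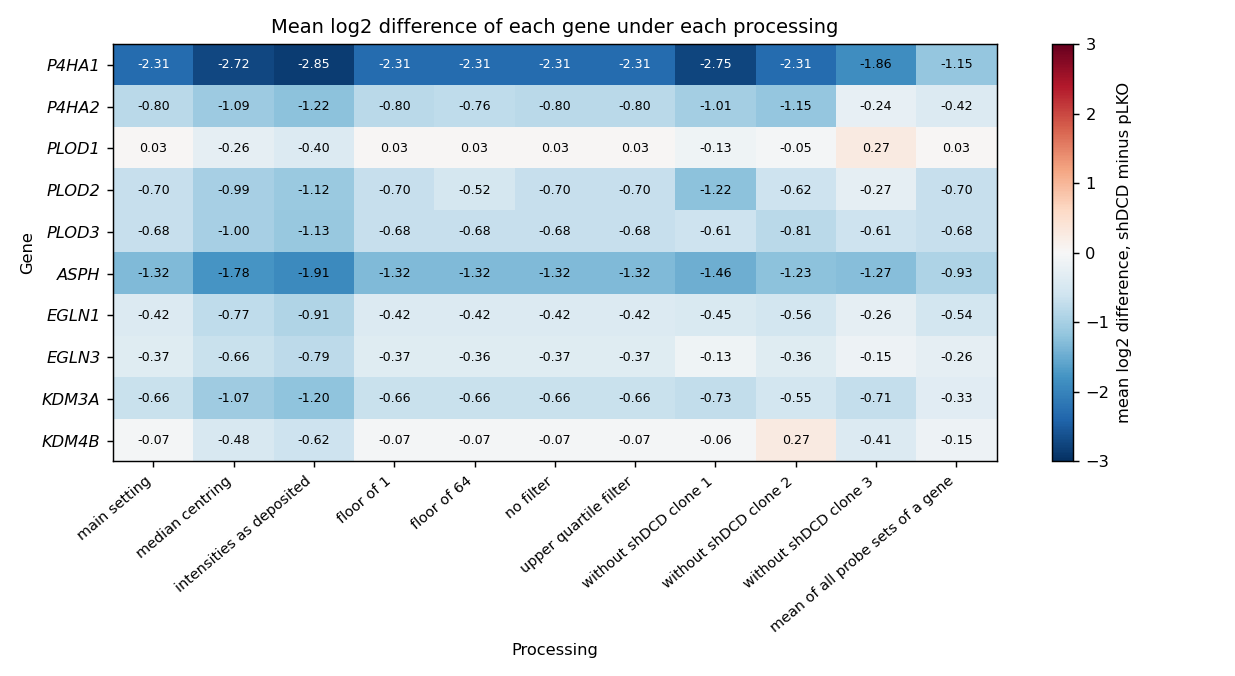
Mean log2 difference, shDCD minus pLKO, of each gene (rows) under each way of processing (columns), with the value printed in each cell. P4HA1 runs from -2.85 to -1.15 and ASPH from -1.91 to -0.93, while PLOD1 and KDM4B have cells of both signs. The -1.15 of P4HA1 averages in its untested probe set, which was at the floor on all 4 arrays and so had a difference of 0.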

How the data were processed

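RNA of 4 MDA-MB-361 derivatives was hybridized to Affymetrix U133 Plus 2.0 arrays. The deposited values are linear intensities, 1 per probe set and array. The authors analysed their arrays with dChip, but which program made these numbers was not given in the sources used here. Since array medians differed by more than spiked controls, intensities were quantile normalized (0 set to 0.1), floored at 16 and expressed as log2. After leaving out 62 control probe sets, the 27307 whose mean log2 reached the median probe set were tested. Probe sets were named through the platform annotation (41097 with 1 gene, 1801 with several, 11777 unnamed here), with symbols of 41043 updated from the RefSeq table of GRCh38.p14, and a gene was read by its probe set of highest mean log2. A limma model (3.58.1, under R 4.3.3) compared 3 arrays with 1, with Benjamini-Hochberg adjustment, 2 residual degrees of freedom and the pLKO array assumed to vary like the clones. The hairpins differ, so its spread holds their differences. Since nothing says how cultures relate, p-values measure only the spread between these arrays. The number of arrays limits the precision. Scripts were tested on simulated data. The members and lists were chosen with earlier results of these data known. All members are named, and from each list up to 3 genes with the largest smallest difference of one sign, with further genes where a count of 5 or fewer or a paralog called for it. Alternatives were other scalings, floors, filters and folds, each clone left out, all probe sets of a gene averaged (untested ones included), and other tests. Figures were drawn with matplotlib 3.10.9.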

Additional observations from a re-analysis of the deposited data

Results flagged for a closer look

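The control probe sets, which enter no comparison above, gave higher 3' to 5' ratios than pLKO in clones 1 and 3. For ACTB the ratio was 9.67 in clone 1 and 42.6 in clone 3, against 5.29 in pLKO. For GAPDH it was 2.18 in clone 1 and 13.1 in clone 3, against 1.09 in pLKO. Their part in the differences of the 10 genes was not tested.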

How the results depend on the processing

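With 1 control array, no alternative gives the control's own spread. The median log2 difference of the 10 genes was -0.67, and it was -0.99 with median centring and -1.13 in the intensities as deposited, where the median of all genes also moved, from -0.06 to -0.31 and -0.42. Leaving out 1 clone gave medians from -0.67 (without clone 1) to -0.34 (without clone 3), 1 to 3 member probe sets at least 3-fold lower in all comparisons (3 without clone 1), and 0 to 1 genes higher in all comparisons (PLOD1 without clone 3). The count of member probe sets at least 3-fold lower, 1, was 2 with median centring, where the P4HA1 probe set joined that of ASPH, and 5 by a rule of at least 2-fold. The share of all probe sets was counted only in the main setting at 3-fold, at 0.179%. The other counts by these fold rules therefore have no share to stand beside. The count of genes lower in all comparisons, 6, lay between 6 and 8 under every alternative. The share of all genes moved more, from 9.36% with a floor of 64 to 32.7% without clone 2. The count of 8 was without clone 1, beside 29.2% of all genes. Of the member probe sets, limma called only 242037_at of ASPH with a floor of 64 (mean log2 difference -0.08). With no filter it called only 216023_at of KDM4B (-0.57). Both had an SD of 0 since all 3 clones were at the floor. In both settings limma also called many probe sets outside the members, so these calls do not set the members apart. The mean log2 difference of PLOD1, 0.03, turned to -0.26 with median centring, -0.40 as deposited, -0.13 without clone 1 and -0.05 without clone 2, that of KDM4B, -0.07, to 0.27 without clone 2 (-0.41 without clone 3), and as deposited those of CRTAP to -0.05 and CREBBP to -0.04. With a floor of 64 limma also called KDM7A (-0.23) and PFKFB3 (-1.30) among the genes of the lists, again with all 3 clones at the floor. These calls thus also rest on an SD of 0. P3H4, KDM8, ASPHD2 and COL1A2 had no difference with that floor. The remaining alternative values of members (95) and list genes (156) kept their direction and side of the threshold. No paired analysis was possible because pLKO is a single array with no replicate number in its label, so fewer than 2 numbers are shared between the groups. The paired test of the study's methods, given above, takes all 3 differences from that one array and pairs no cultures.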
